A study of Canis lupus familiaris with 16 samples.

Results

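WNT5A, SFRP1, FRZB, DAAM2 and CPZ were described in RNAseq libraries of canine meningioma and of normal canine meninges. These 5 genes, 1 WNT ligand and 4 WNT modulators, were taken by name from the study's lists of genes that differed between these groups, and they are 5 of the 24580 Ensembl genes in the deposited table. The lists themselves came from this contrast, so differences of these genes between the groups are given below as a description, and calls from the fit across all genes are no independent evidence for them. The 13 meningiomas were surgical biopsies from dogs, 6 of grade I (5 transitional and 1 meningothelial) and 7 of grade II, all atypical. The 3 controls were leptomeninges of healthy research beagles. Nearly all meningiomas were fixed in formalin and embedded in paraffin, a pair was frozen, and all controls were frozen. The frozen samples of both groups were extracted with another reagent than the fixed ones. Preservation and breed thus differed between the groups along with diagnosis, and their part in the contrast was not tested.

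WNT proteins are secreted, lipid-modified signals that bind Frizzled receptors and co-receptors at the cell surface. In the canonical branch, binding stabilises β-catenin, which acts with TCF/LEF factors in the nucleus. Other branches act on cell polarity and movement through Dishevelled and small GTPases, and WNT5A is best known for these. Secreted Frizzled-related proteins such as SFRP1 and FRZB carry a cysteine-rich domain like that of the receptors and can bind WNT ligands outside the cell. CPZ, a secreted carboxypeptidase, carries a domain of the same kind. DAAM2 is a formin that binds Dishevelled inside the cell. Since the samples were bulk tissue, fewer cells of a type and less RNA per cell could not be told apart for any of these genes.

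Between 2138741 and 7358925 fragments per meningioma library were counted on genes (median 4095984), and 7054614, 2269204 and 4467660 in control libraries 0, 1 and 2. The table numbers the libraries within each group without the names of the dogs. Libraries were not matched to dogs here, so grade, subtype and preservation were not compared. Meningioma libraries 2 and 12 stood apart on the third principal component of the genes with a mean of at least 1 FPKM. Their scores were 70.3 and 67.5 against -34.9 to 14.9 in the other libraries, and relations were also computed without them. Meningioma libraries 10 and 9 had the lowest scores of all libraries on the first component (-53.5 and -44.1) and on the second (-55.8 and -43.8). PDPN, a marker of arachnoid cells, had 44.1 to 478.1 FPKM in the meningiomas and 16.9 to 44.6 FPKM in the controls. It was the only 1 of 5 arachnoid markers with an identifier and is in the study's list of higher genes, so its direction is not independent. FPKM is the number of fragments scaled for transcript length and library size, and it is the scale used here wherever genes are compared with each other.

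WNT5A (ENSCAFG00000029321), the ligand, was the only one of the 5 genes at a higher level in the meningiomas. The control libraries had 6.44, 5.21 and 11.5 FPKM. In the meningiomas the lowest library had 12.2, the median was 30.0 and the highest had 114.1 FPKM. The groups did not overlap, although the lowest meningioma library was close to the highest control. Libraries 10 and 9 were well above the rest, with 114.1 and 95.4 FPKM, and the next one had 64.3 FPKM. Both also had the fewest fragments on genes among the meningiomas, 2138741 in library 10 and 3455963 in library 9. From 270 to 2051 fragments lay behind the values of the meningiomas, so counting error was small beside the spread between libraries. In edgeR's fit across 14345 genes, the log2 fold change of meningioma over control was 2.48 (standard error 0.65), a 5.59-fold difference.

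SFRP1 (ENSCAFG00000005737), a secreted antagonist of WNT signalling, had 52.7, 29.6 and 35.5 FPKM in the controls. Its meningioma libraries ran from 0.636 to 12.6 FPKM with a median of 3.34. In FPKM, all 13 lay below all controls, and below 50% of the lowest control. It was the most variable of the 5 genes among the meningiomas, with a 19.8-fold range. The log2 fold change was -3.08 (standard error 0.62). At the low end few fragments limited the precision, with 11 counted in library 2 (exact Poisson 95% interval 5.49 to 19.7) and 12 in library 12.

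FRZB (ENSCAFG00000024988), a second secreted Frizzled-related protein, had the highest level of the 5 genes in control library 0. The controls had 124.4, 95.2 and 115.7 FPKM, and their SD in log2 CPM (fragments relative to library size, TMM-scaled) was 0.18. The meningiomas ran from 2.83 to 25.0 FPKM with a median of 9.46, and none reached the controls. Library 7 had the highest level and library 2 the lowest, which rested on 7 fragments (exact Poisson 95% interval 2.81 to 14.4). The log2 fold change was -3.31 (standard error 0.44), the largest of the 5 in size, where 0.823% of all tested genes had a larger one.

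DAAM2 (ENSCAFG00000001565), the intracellular member, had 63.7, 31.1 and 40.7 FPKM in the controls. In the meningiomas it ran from 1.65 in library 11 to 11.4 FPKM in library 9, with a median of 5.86. All meningioma libraries were below 50% of the lowest control. The spread between meningiomas was the smallest of the 5 genes, an SD of 0.79 in log2 CPM. The log2 fold change was -2.94 (standard error 0.37).

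CPZ (ENSCAFG00000014583) was the member whose groups overlapped. The controls differed among themselves, with 35.7 FPKM in library 0 and 116.7 and 138.1 in libraries 1 and 2. Control library 0 had the highest SFRP1, FRZB and DAAM2 of the controls and the lowest CPZ. The meningiomas ran from 3.17 to 40.6 FPKM with a median of 7.40, and 12 of 13 were below all controls. Library 2 had 40.6 FPKM, above control library 0. The largest step between neighbouring meningioma libraries separated 4 of them (libraries 2, 3, 11 and 12, from 19.3 to 40.6 FPKM) from 9 with 11.4 FPKM or less. The log2 fold change was -2.86 (standard error 0.58), -3.25 without control library 0 and -2.53 without control library 2.

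**Figure D1:**
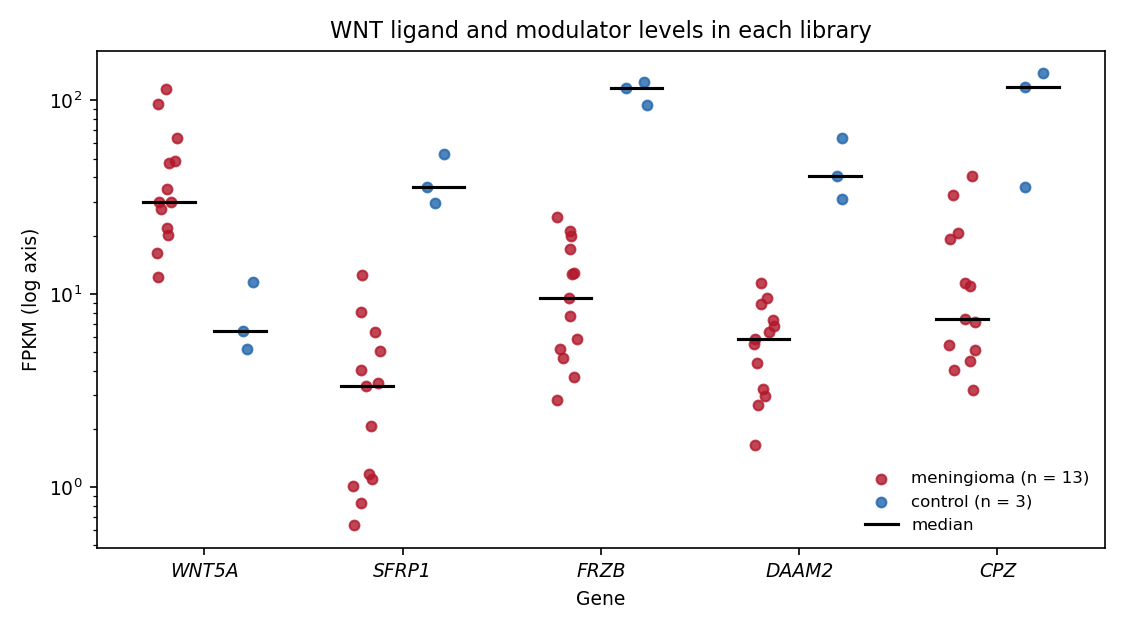
FPKM (log axis) of each gene in the 13 meningioma libraries (red) and the 3 control libraries (blue), 1 point per library, with black lines at the medians. WNT5A is above all controls in 13 meningioma libraries, SFRP1, FRZB and DAAM2 are below all controls in 13, and CPZ is in 12.

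With Benjamini-Hochberg adjustment over all tested genes, edgeR's quasi-likelihood fit gave 5 of the 5 genes an adjusted p under 0.05, 1 higher and 4 lower, where 1.31% of all tested genes were higher and 3.55% lower in the meningiomas. Since the genes were picked for this contrast, nothing is read from that count. In FPKM, all meningioma libraries lay above all controls in 1.92% of the tested genes, as for WNT5A, and below all controls in 3.65%, as for SFRP1, FRZB and DAAM2. In log2 CPM these shares were 2.15% and 3.58%. Across all tested genes the median log2 difference was 0.06. The SD between meningiomas was larger for each of the 5 genes than the median of all tested genes (0.58 in log2 CPM), and for SFRP1 91.6% of tested genes had a smaller one. The calls of 3 genes were lost when a control was left out. Leaving out control library 0, 1 or 2 also lowered the genes called higher over all tested genes, from 188 to 37, 43 and 12. The log2 fold change of WNT5A was then 2.38, 2.27 and 2.88. For WNT5A the edgeR adjusted p was 0.174, 0.170 and 0.115 without control library 0, 1 and 2, for SFRP1 it was 0.0562 without control library 0, and for CPZ it was 0.0921 without control library 2. Those of FRZB and DAAM2 stayed under 0.05 with each of the 16 libraries left out in turn. The choice of genes favours calls that stay, so nothing is read from these.

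Within each library the order of the 5 genes differed between the groups. In all 3 controls WNT5A had the lowest FPKM of the 5, and FRZB or CPZ had the highest. In 12 of 13 meningiomas WNT5A had the highest, and in library 3 it came second to CPZ, with 30.0 against 32.3 FPKM. FRZB was second in 7 meningiomas, CPZ in 3 and DAAM2 in 2. The lowest place was held by SFRP1 in 7 meningiomas, DAAM2 in 5 and CPZ in 1. The choice of 1 higher and 4 lower genes favours such an order.

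The summed FPKM of the 4 modulators was 276.6, 272.6 and 330.0 in the controls. In the meningiomas it ran from 17.7 to 49.0 with a median of 32.3, so that the lowest control was 5.56-fold above the highest meningioma. While single modulators varied 6.88-fold to 19.8-fold between meningiomas, their sum varied 2.78-fold. The fold range of a sum cannot exceed the largest of its parts and shrinks when these vary separately, so nothing is read from the smaller range. Different genes made up the sum in different tumors, with CPZ leading the modulators in libraries 2, 3, 11 and 12 FRZB in 7 others and DAAM2 in libraries 1 and 4. WNT5A made up 1.88% to 3.37% of the FPKM of the 5 genes in the controls and 30.2% to 76.4% in the meningiomas (median 55.5%). It exceeded the summed modulators in 7 of 13 meningiomas and in 0 of 3 controls. The lowest share was in library 6 and the highest in library 10.

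**Figure D2:**
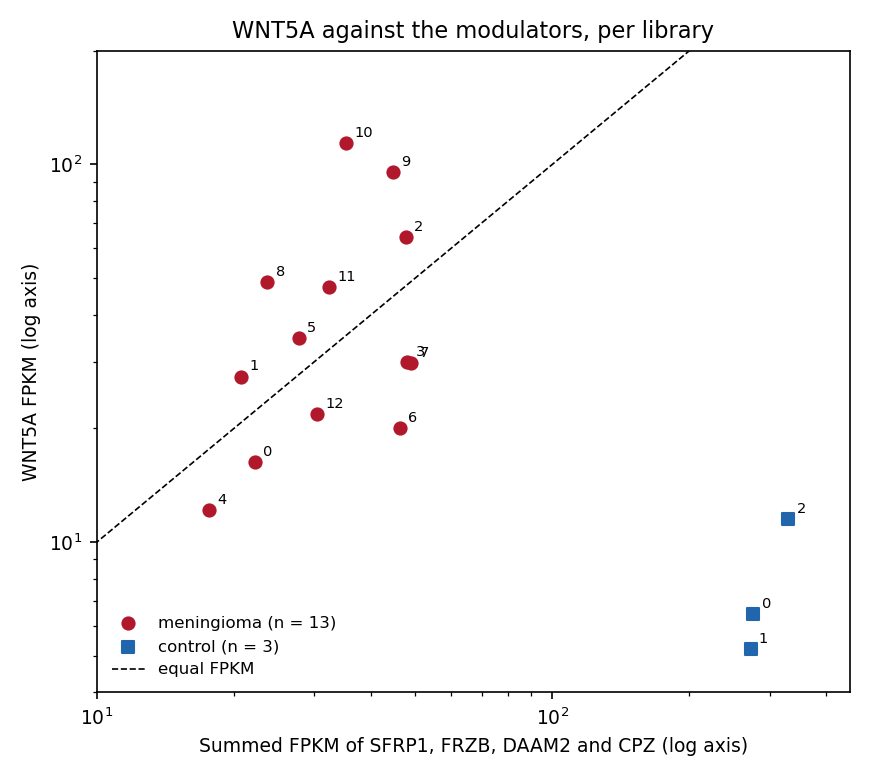
WNT5A FPKM against the summed FPKM of SFRP1, FRZB, DAAM2 and CPZ (both log axes) in each library, labelled with its number within its group. The dashed line marks equal values. The 3 controls (blue squares) lie at sums of 272.6 to 330.0 FPKM and the 13 meningiomas (red circles) at 17.7 to 49.0, with 7 of them above the line.

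The log2 ratio of WNT5A to each modulator had its widest range for SFRP1, from 1.25 in library 7 to 6.34 in library 9, against -3.03 to -1.63 in the controls. Over FRZB it ran from 0.01 in library 6, where both genes had about 20 FPKM, to 4.51 in library 2 (controls -4.27 to -3.33). Its values over DAAM2 were 0.94 to 4.84 (controls -3.31 to -1.82). Against CPZ the ratio ran from -0.11 to 4.38 (controls -4.49 to -2.47). No ratio overlapped between the groups, and that is also favoured by the choice of genes.

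Libraries differed in which modulators were most reduced. Relative to the control mean in log2 CPM, library 2 was lowest for FRZB and highest for CPZ, and it had the third highest WNT5A. Library 7 was highest for both SFRP1 and FRZB. Library 11 was lowest for DAAM2, and library 12 was lowest for SFRP1. No single library was lowest for all 4 modulators, which unrelated genes would nearly always give, so nothing is read from it. The lowest places rest on 7 fragments for FRZB and 12 for SFRP1, so counting error leaves them unsettled.

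**Figure D3:**
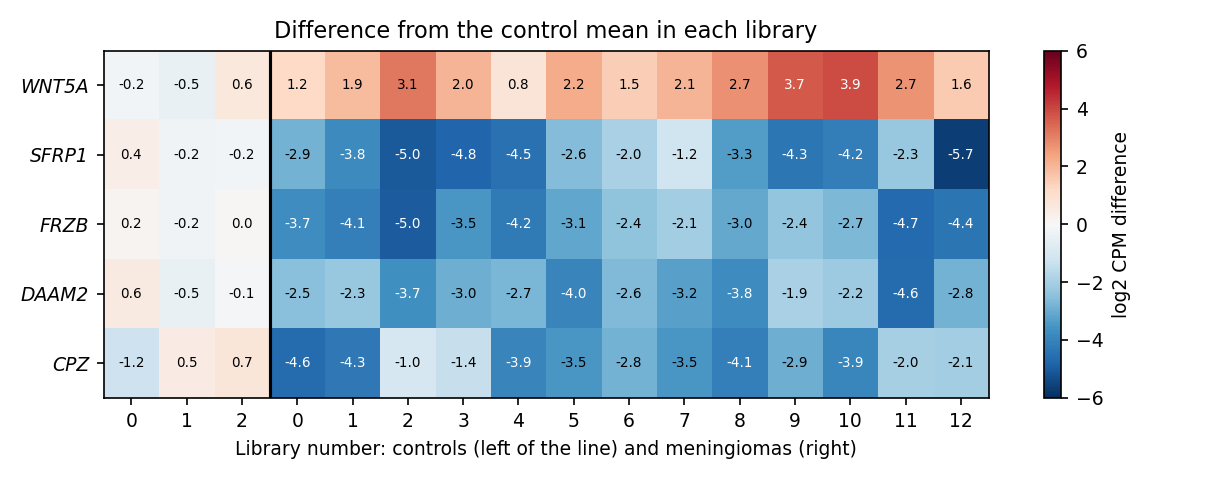
Difference of log2 CPM from the mean of the 3 controls for each gene (rows) in each library (columns, controls left of the black line, meningiomas right). Red is higher and blue lower than the control mean. WNT5A is red in all meningiomas, and the depth of blue for the modulators changes from library to library, with CPZ palest in library 2 and SFRP1 darkest in library 12.

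The study's lists rest on group differences tested gene by gene, so the spread of each gene within the meningiomas had a part in them. How the genes varied together had no part in the lists, although the members were chosen with earlier results of these data known. Relations between the genes were tested over the 13 meningioma libraries, in log2 CPM. None of the 10 pairs passed after Benjamini-Hochberg adjustment over the pairs, and the smallest adjusted permutation p was 0.474. WNT5A had r = -0.14 with SFRP1 (rho = -0.07, permutation p = 0.638 and 0.834, adjusted 0.709 and 0.834). It had r = 0.22 with FRZB (rho = 0.21, permutation p = 0.472 and 0.480, adjusted 0.591 and 0.600). With DAAM2 it had r = -0.04 (rho = -0.09, permutation p = 0.906 and 0.766, adjusted 0.906 and 0.834) and with CPZ r = 0.22 (rho = 0.26, permutation p = 0.473 and 0.382, adjusted 0.591 and 0.600). No relation of the ligand with a modulator was detectable over 13 libraries. Without libraries 9 and 10, the farthest from the median of WNT5A, these r were 0.03, -0.17, -0.74 and 0.47. For DAAM2 the permutation p was then 0.00920, and 0.0920 after adjustment, so the value near 0 in all 13 libraries rested on these libraries. Libraries 9 and 10 held the highest levels of both WNT5A and DAAM2.

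Among the modulators, SFRP1 and FRZB had the highest r, 0.48 (rho = 0.49, permutation p = 0.0921 and 0.0914, adjusted 0.474 and 0.600). Both were highest in library 7. Without libraries 6 and 7, the farthest from the median of SFRP1, r was 0.16. FRZB and DAAM2 had r = 0.35 (rho = 0.34, permutation p = 0.236 and 0.255, adjusted 0.474 and 0.600). The other 4 pairs had r from -0.37 to -0.32 (rho from -0.37 to -0.22), with adjusted permutation p from 0.474 to 0.482 for r and 0.600 for rho. All 3 pairs with CPZ were among the negative ones. Without libraries 2 and 12, CPZ had r = -0.04 with SFRP1 and -0.03 with FRZB, so these values rested on that pair of libraries.

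**Figure D4:**
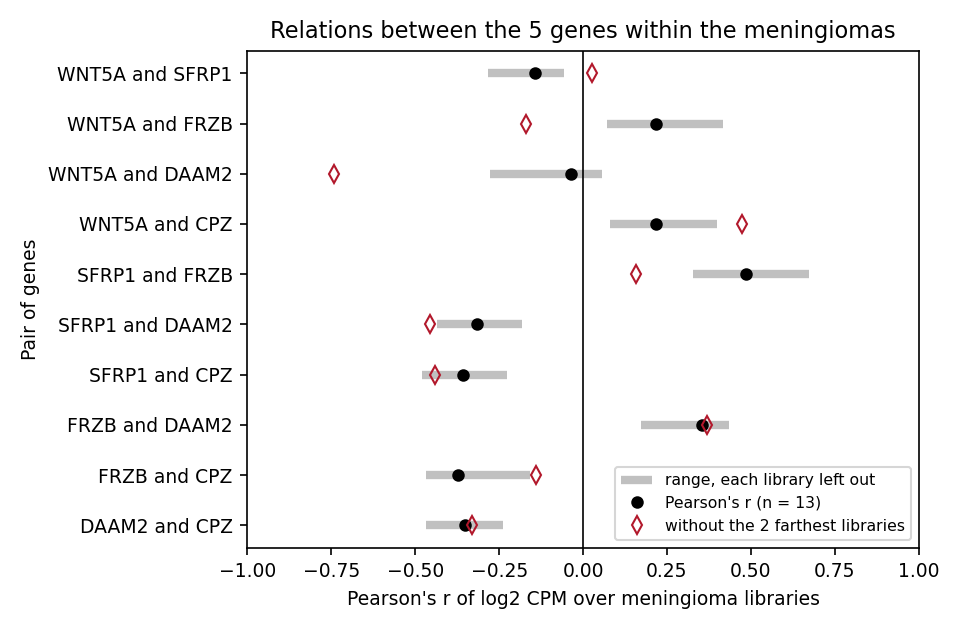
Pearson's r of log2 CPM for each pair of genes over the 13 meningioma libraries (black points), with the range when each library was left out (grey bars) and the value without the 2 libraries farthest on the x axis (open diamonds). The bars of 9 pairs stay on 1 side of 0, that of WNT5A and DAAM2 crosses 0, and its diamond lies at -0.74.

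The genes most like each member over the 13 meningiomas were taken from the 123 others with a symbol in the study's lists. For FRZB they were ARAP3 (r = 0.85), CYYR1 (r = 0.82) and MGLL (r = 0.81). SFRP1 was most like ABCA8 (r = 0.84), PALD1 (r = 0.75) and MYH11, the smooth muscle myosin heavy chain (r = 0.73). All 6 of these genes are from the lower list. WNT5A was most like LAMC3, a laminin chain of the lower list (r = 0.69), MYBL1, a MYB-family transcription factor of the higher list (r = 0.64), and the angiotensin converting enzyme gene, listed as DCP1/ACE (r = 0.59). DAAM2 had STXBP6 of the higher list (r = 0.66) and then values of 0.47 and below. CPZ had MMRN2, an endothelial matrix protein of the lower list (r = 0.61), as its first. These r are the highest of 123 and share the library scaling, and no test was made of them.

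Markers of vessels and of meningeal fibroblasts moved with the modulators between the groups. All 11 endothelial markers with an identifier (of 16 in the list, PECAM1, TEK and TIE1 among them) were lower by the test, where 3.55% of all tested genes were lower. Their summed levels were 44.3 to 191.5 FPKM in the meningiomas and 487.7 to 795.9 FPKM in the controls. All 3 mural markers with an identifier (of 8), NOTCH3, MCAM and MYH11, were lower, with sums of 11.04 to 41.9 against 101.6 to 238.9 FPKM. Of the 4 fibroblast markers with an identifier (of 9), ALPL, FMOD, COL14A1 and APOD, 3 were lower by the test. The log2 fold changes of all 4 were negative (-4.73 to -2.21), with sums of 45.1 to 170.1 against 488.8 to 757.6 FPKM. Only markers in the study's own lists, from which the modulators also come, had an identifier, so these counts and directions are not independent. The other markers of these lists were not analysed here. None of those analysed was at 0 in any library. Macrophage and brain markers were not analysed here. Over the 13 meningiomas, FRZB had r = 0.66 with the mean log2 CPM of the fibroblast markers (rho = 0.52, permutation p = 0.00895 and 0.0697) and SFRP1 had r = 0.59 (rho = 0.58, permutation p = 0.0287 and 0.0420). After adjustment over the 20 relations with marker lists and depth, these were 0.179 and 0.287 for r and 0.436 and 0.420 for rho. Without the 2 libraries farthest from the median of the marker mean, r was 0.32 and 0.31. Without libraries 2 and 12 it was instead 0.61 for FRZB and 0.74 for SFRP1 (permutation p = 0.0443 and 0.00793), and FRZB had r = 0.68 with the endothelial markers (permutation p = 0.0225), against 0.37 in all 13 libraries. After adjustment over the 20 relations these were 0.295, 0.159 and 0.225. The part of these cells in the levels of the modulators was not tested. Over the 13 meningiomas, WNT5A had r = -0.49 with log2 total fragments (rho = -0.41, permutation p = 0.0867 and 0.165, adjusted 0.434 and 0.436). FRZB had r = -0.46 (rho = -0.58, permutation p = 0.113 and 0.0399, adjusted 0.453 and 0.420). Without the 2 libraries farthest from the median depth, these r were -0.09 and -0.43. SFRP1, DAAM2 and CPZ had r of -0.18, -0.25 and 0.10 with depth.

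Of 91 other WNT pathway genes in the lists used (ligands, secreted modulators, receptors, transducers and targets), 5 were paired with an identifier, all through the study's lists, and the rest were not analysed here. Of these 5, 2 were higher and 3 lower by the edgeR test, with the background shares given above, and they too were picked on this contrast. DACT2 (ENSCAFG00000000866), a Dishevelled-binding antagonist, was higher by 2.60 on the log2 scale (standard error 0.68), from 0.657 to 1.79 FPKM in the controls to a median of 6.71 FPKM in the meningiomas. It was above all controls in 12 of 13 libraries, and the exception, library 2 with 0.797 FPKM, was one of the libraries that stood apart. In log2 CPM library 2 had 1.52 for DACT2, below all controls at 2.13 to 2.79. MYC, a transcription factor whose gene is a target of canonical WNT signalling, was higher by 1.97 on the log2 scale (standard error 0.50). It was above all controls in 12 libraries. MCAM, a cell adhesion molecule that can act as a receptor for WNT5A, had -3.06 (standard error 0.47). The VEGF receptor FLT1 had -3.02 (standard error 0.36) and the kinase PRKD1 had -3.45 (standard error 0.48), and for MCAM, FLT1 and PRKD1 no meningioma reached the lowest control. Without any single control library, 3 of these 5 genes stayed under an adjusted p of 0.05.

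The measured length behind FPKM was the same in every library for 4 of the 5 genes. For SFRP1, FPKM per scaled fragment varied 2.53-fold between libraries, from 0.80 of the gene's median in meningioma library 3 to 2.02 in library 10. Variation of over 1.5-fold was seen in 4.91% of the 9793 genes with at least 10 fragments in every library. Among the other pathway genes it was 2.01-fold for DACT2 and 1.51-fold for PRKD1. Meningioma library 10 had 3.34 FPKM of SFRP1 and a log2 CPM of 2.64, while library 1 had 2.06 FPKM and a log2 CPM of 2.99. The order of SFRP1 among the meningiomas thus differed between FPKM and log2 CPM. Its log2 fold change was -3.33 on log2(FPKM + 1) by limma and -3.08 on fragments by edgeR.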

How the data were processed

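RNAseq libraries of 13 canine meningiomas and 3 normal meninges were analysed. The authors used cutadapt 1.8 for trimming, discarded ribosomal and small-RNA reads, aligned to CanFam3 by TopHat2 2.0.13 and ran Cuffdiff 2.2.1 (versions per the submitters' processing notes). The deposited table holds estimated counts of fragments, a signal that the authors made by dividing these counts by 1 size factor per library, and FPKM computed by the authors from the scaled fragments and transcript length. Libraries were grouped by the table's condition column, and their numbers were not matched to dogs here. Identifiers of genes were paired with symbols through the study's lists (124 identifiers, all found).

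Counts were rounded and fitted with edgeR 4.0.16 in R 4.3.3 (quasi-likelihood, TMM) keeping the 14345 genes that reached 10 fragments in 3 or more libraries. P-values were adjusted by Benjamini-Hochberg. Each standard error was derived from the fold change and the F statistic. Log2 CPM used a prior count of 2. Relations used two-sided permutation tests with 100000 resamples (numpy 2.4.6, scipy 1.17.1, Python 3.11.15). Poisson intervals cover counting error only. Alternatives were DESeq2 1.42.0, limma 3.58.1 on log2 FPKM with a pseudocount of 1 or 0.1, other size factors, other filters (none, or at least 50 fragments) and libraries left out. The edgeR fit and the permutation test were tested on simulated data. The members, gene lists and marker lists were chosen with earlier results of these data known, and the relations with marker lists and depth were added after levels had been seen. The named genes were the 5 members, the listed pathway genes with an identifier and, for each member, the 3 most alike genes.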

Additional observations from a re-analysis of the deposited data

How the results depend on the processing

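The log2 fold changes of the 5 genes kept their sign in each of 24 alternatives and moved by less than 1 SD between meningiomas, from 2.12 to 2.88 for WNT5A, -3.81 to -2.86 for SFRP1, -3.58 to -3.14 for FRZB, -3.14 to -2.60 for DAAM2 and -3.25 to -2.53 for CPZ. Of the 5, 5 had an adjusted p under 0.05 in the 8 alternatives that did not leave out 1 library, and 3 to 5 with each library left out. The other 5 pathway genes gave 3 to 5 with each library left out. Both sets of genes were picked on this contrast, so nothing is read from these counts. Over all genes, 188 were higher and 509 lower with edgeR. With DESeq2 660 were higher and 699 lower, without meningioma libraries 2 and 12 354 were higher, and with each library left out 12 to 316 were higher and 157 to 615 lower. Without control library 0, 1 and 2, 37, 43 and 12 were higher and 208, 307 and 157 lower, and without meningioma library 6 316 were higher. Why these counts moved was not tested, beyond the fewer controls. Some relations changed sign. Without the 2 libraries farthest from its median, WNT5A had r = 0.0270 with SFRP1 and -0.171 with FRZB. Its r with DAAM2 was 0.00615 in log2(FPKM + 1), 0.0469 without libraries 2 and 12, and between -0.276 and 0.0576 with each library left out. The cause was not tested. No relation between members passed in any alternative. No paired analysis was possible because the groups hold different dogs and the table's library numbers do not carry the names in the labels and were not matched to them here. Counting error limits the lowest values, which rest on 7 fragments for FRZB and 12 for SFRP1.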
